A study of Mus musculus with 568 samples.

Results

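*Rhox5*, *Rhox6* and *Rhox9* are 3 genes of the reproductive homeobox cluster on the mouse X chromosome, chosen here by name. They are 3 of the 16335 genes measured in bulk RNA, and all 3 passed the filter on low values (mean normalized count above 10). *Rhox6* and *Rhox9* also have allelic ratios in bulk and values in single cells, while *Rhox5* was not analysed here beyond its bulk level.

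All cells came from XRep, a female mouse embryonic stem cell (ESC) line with 1 X chromosome from 129S1/SvImJ (Xmus) and 1 from CAST/EiJ (Xcas). In every group, Xmus carries a *Tsix* truncation that directs inactivation to it and a GFP reporter at *Hprt*, Xcas carries tdTomato, and the cells hold rtTA at *Rosa26* with piggyBac transgenes for *Prdm14*, *Blimp1* and *Tfap2c* that doxycycline switches on. Bulk RNA comes from 4 libraries each of ESCs, epiblast-like cells (EpiLCs, 4 days) and primordial germ cell-like cells (PGCLCs, 5 days with 1.5 µg/ml doxycycline). PGCLCs were sorted as SSEA1+ and CD61+ and split into XGFP+ (Xmus reporter on) and XGFP− (Xmus reporter silent), while ESCs and EpiLCs were unsorted. Single cells come from reconstituted ovaries (rOvaries), in which PGCLCs were cultured for 6 days with somatic cells of E13.5 female gonads and mesonephros. The study's methods name the strain CD1/ICR for gonadal somatic cells. 3 of the sorted rOvary populations (XGFPhigh, XGFPintermediate and XGFPlow) descend from XGFP− PGCLCs and 1 (XGFP+ constitutive) from XGFP+ PGCLCs, and 24 single ESCs were measured beside them. The study's methods describe 2 clones of the line and technical replicates, the labels do not give the clone of a library, and p-values over the 4 libraries of a group are too small if some of them are technical replicates.

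Rhox genes encode homeodomain transcription factors and lie side by side on the X chromosome. They are known for expression in germ cells, in the supporting cells of testis and ovary and in the placenta, and DNA methylation is known to silence the cluster in the embryo proper after implantation. *Rhox5*, first named *Pem*, is the founding member and is expressed in ESCs, in trophoblast and in Sertoli cells. *Rhox6* and *Rhox9* are close relatives of each other, known from placenta, primordial germ cells and the fetal ovary.

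In GENCODE vM21 on mm10, 42 genes whose symbol starts with Rhox span chrX:37213804-38306028, a stretch of 1.09 Mb. *Rhox5* (ENSMUSG00000095180) lies at chrX:37804842-37808876 on the plus strand. *Rhox6* (ENSMUSG00000006200) follows at chrX:37826910-37829857 on the plus strand, and *Rhox9* (ENSMUSG00000068048) lies at chrX:37899097-37901770 on the minus strand. All 3 have 4 coding exons, with 639 coding bases in *Rhox5* and 681 in both *Rhox6* and *Rhox9*.

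The third coding exon is 46 bases long in each gene and shows how near *Rhox6* and *Rhox9* are to each other and how far *Rhox5* is from both. It is given 5′ to 3′ on the coding strand. Capitals in *Rhox6* and *Rhox9* mark the base in which the pair differ, and capitals in *Rhox5* mark the 18 bases found in neither of them.
Rhox5, chrX:37806074-37806119, plus strand: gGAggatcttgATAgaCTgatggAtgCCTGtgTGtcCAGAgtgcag
Rhox6, chrX:37828415-37828460, plus strand: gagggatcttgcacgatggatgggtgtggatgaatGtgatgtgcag
Rhox9, chrX:37900280-37900325, minus strand: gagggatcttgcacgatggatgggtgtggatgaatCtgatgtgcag
In this exon *Rhox6* and *Rhox9* share 45 of 46 bases, *Rhox5* and *Rhox6* share 27, and *Rhox5* and *Rhox9* share 28.

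The last coding exon, 93 bases in *Rhox6* and in *Rhox9*, is shown because the pair differ more here than in the third, with capitals at the 19 bases that differ.
Rhox6, chrX:37829624-37829716, plus strand: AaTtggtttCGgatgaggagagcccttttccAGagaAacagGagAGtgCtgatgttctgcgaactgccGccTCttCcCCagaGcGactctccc
Rhox9, chrX:37899207-37899299, minus strand: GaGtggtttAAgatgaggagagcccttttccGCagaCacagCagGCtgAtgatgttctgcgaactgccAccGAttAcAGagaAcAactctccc
Over the whole coding sequence *Rhox6* and *Rhox9* are identical at 617 of 681 bases (90.6%). Their transcripts share an exact run of 161 bases, and 159 of the 961 windows of 50 bases in the *Rhox6* transcript (16.5%) also occur in that of *Rhox9*. Reads from such stretches could be given to either gene or to neither, so the counts of *Rhox6* and *Rhox9* are partly uncertain, and how many reads this touches was not tested. *Rhox5* shares no window of 50 bases with *Rhox6* or *Rhox9*.

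For *Rhox5*, RefSeq gives a transcription start outside the GENCODE span of the gene, and the 300 bases around it (250 before and 50 after the start, GRCm38.p6, chrX:37754358-37754657, plus strand) are shown with CG in capitals, the letters at which DNA methylation acts. This window lies far upstream of the GENCODE gene, which starts at chrX:37804842. The bases next to that GENCODE start were not examined, so the counts below do not describe them. RefSeq promoters were found for 28 Rhox genes and for 1 of the 3 members.
Rhox5 promoter: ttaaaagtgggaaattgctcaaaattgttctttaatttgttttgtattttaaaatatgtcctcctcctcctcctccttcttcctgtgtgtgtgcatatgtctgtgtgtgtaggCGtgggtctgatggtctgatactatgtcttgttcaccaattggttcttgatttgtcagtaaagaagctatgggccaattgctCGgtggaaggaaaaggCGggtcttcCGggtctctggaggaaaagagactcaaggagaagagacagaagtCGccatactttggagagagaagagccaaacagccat
This window holds 5 CG, against a median of 7 over 32851 RefSeq promoters of the same length, of which 94.6% hold at least 1. GCCNNNGGC, searched on both strands, does not occur in it and occurs in 16.6% of promoters. GGTCTCTAA (0.256% of promoters), GAAAGTG (4.81%), CACGTG (7.15%) and TCCCGC (19.98%), each on both strands, are not in it either. DNA methylation was not analysed here.

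The depth of the bulk libraries, read back from the value steps, was 29.8 to 46.5 M reads on genes. Marker lists were read in the labelled cell types. From ESCs to EpiLCs all 4 formative epiblast genes of a fixed list rose and all 8 naive pluripotency genes fell. 12 germ cell genes summed to 17031 to 18469 normalized counts per ESC library and 4132 to 6830 per EpiLC library. Their sum was 40330 to 47223 for XGFP+ PGCLCs, and XGFP− PGCLCs had 39664 to 45503. The list holds *Prdm1* (*Blimp1*), *Prdm14* and *Tfap2c*, which doxycycline switches on in PGCLCs, so the sum alone cannot show germ cell identity. From EpiLCs, 8 of the 12 were called higher and 2 lower in XGFP+ PGCLCs, and 7 higher and 4 lower in XGFP− PGCLCs. Of 12 gonadal somatic genes, 7 were in the bulk table, with summed levels of 160 to 303 in XGFP+ and 145 to 225 in XGFP− PGCLCs, and the defining markers *Nr5a1*, *Emx2*, *Lhx9*, *Foxl2* and *Sox9* were not among the genes analysed here. Placental expression makes trophoblast markers the ones to set beside Rhox levels. 4 of 10 were in the table (not *Elf5*, *Gata3*, *Hand1*, *Plac1*, *Tpbpa* or *Prl3d1*), and their sum was 207 to 307 in ESCs and 2038 to 3015 in EpiLCs. XGFP+ PGCLCs gave 699.7 to 763, and XGFP− PGCLCs gave 822 to 1006. Of 9 primitive endoderm genes 6 were in the table, without *Gata6*, *Sox17* and *Sox7*, and their sum was 136.1 to 182 for XGFP+ PGCLCs, with 399.9 to 495 for XGFP− PGCLCs. The trophoblast sum was highest in EpiLCs, where *Eomes* alone had a mean of 2227. *Krt7*, not called between the PGCLC populations, had means of 569 in XGFP− and 196 in XGFP+ PGCLCs. Both sums were higher in XGFP− than in XGFP+ PGCLC libraries. Their genes did not move together. *Eomes*, the 1 called trophoblast gene, was lower in XGFP− PGCLCs (log2 fold change -0.79), as was the endoderm gene *Pdgfra* (-1.50), while *Cubn* (2.99) and *Dab2* (2.63) were higher. Their part in Rhox levels was not tested.

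*Rhox5* was present in ESCs and in EpiLCs, and it had the widest gap of the 3 members between the PGCLC populations. In bulk RNA, fewer cells expressing a gene and less RNA per cell cannot be told apart. Its normalized counts (reads divided by 1 size factor per library) were 644, 743, 706 and 543 in the 4 ESC libraries. EpiLC libraries gave 1274, 596, 1203 and 474, a wider spread that overlaps the ESC values. XGFP+ PGCLC libraries gave 5478, 4807, 4617 and 5092, and XGFP− PGCLC libraries gave 847, 987, 944 and 1376. Every XGFP+ library was thus above every other library, whereas XGFP− and EpiLC libraries overlapped. How many of all genes have such a gap was not counted.

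*Rhox6* fell in EpiLCs and then rose in both PGCLC populations. ESC libraries gave 340, 282, 320 and 255 normalized counts, and EpiLC libraries 43.6, 41.5, 26.8 and 21.7. In XGFP+ PGCLCs the values were 4803, 4779, 5519 and 5170, and in XGFP− PGCLCs 1777, 2508, 2096 and 2815. No 2 of the 4 groups overlapped, but the share of all genes without overlap was not counted.

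*Rhox9* took the same course, with the smallest gap between PGCLC populations. Its normalized counts were 115.6, 146, 140 and 149 in ESCs and 42.0, 41.5, 29.8 and 9.87 in EpiLCs, the last resting on 10 reads. XGFP+ PGCLCs gave 5128, 5347, 6007 and 5244, and XGFP− PGCLCs 2829, 3815, 3504 and 4078. Here too the 4 groups stood apart in every library, with the same limit that the share of all such genes was not counted.

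**Figure D1:**
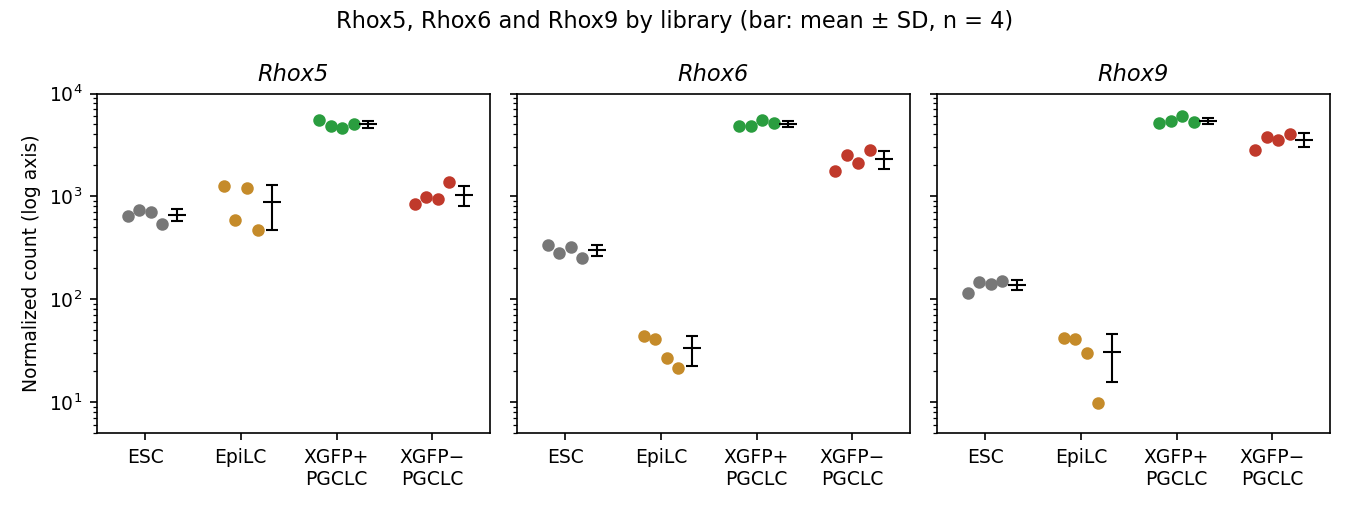
Normalized counts of *Rhox5*, *Rhox6* and *Rhox9* in each of the 16 bulk libraries (log axis), with points for libraries and bars for the mean ± SD of 4 libraries. *Rhox6* and *Rhox9* dip to means of 33.4 and 30.8 in EpiLCs and are highest in the PGCLC populations, while *Rhox5* stands apart in XGFP+ PGCLCs.

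Mean levels show that *Rhox5* was the most abundant of the 3 in ESCs, with 659 ± 87.4 (SD, n = 4) against 299 ± 38.3 for *Rhox6* and 137.8 ± 15.3 for *Rhox9*. In XGFP+ PGCLCs the means, not scaled by length, were 4998 ± 375, 5068 ± 350 and 5432 ± 394, each above at least 91.3% of the genes in the table. In XGFP− PGCLCs they were 1038 ± 233, 2299 ± 456 and 3557 ± 539. Levels of different genes can be compared per length only. In XGFP+ PGCLCs, levels per kilobase of annotated exon were 6629 ± 497 for *Rhox5*, 5017 ± 347 for *Rhox6* and 2183 ± 158 for *Rhox9*. Per kilobase of annotated exon (754, 1010 and 2488 bases), XGFP− PGCLCs had 1377 ± 309 for *Rhox5*, 2276 ± 451 for *Rhox6* and 1430 ± 217 for *Rhox9*, so by this length *Rhox5* and *Rhox9* did not differ beyond their spread. *Rhox9* has a long annotated isoform, and per kilobase of its coding transcript (882 bases) its level there was 4033 ± 611, above both *Rhox5* and *Rhox6*. In XGFP+ PGCLCs the *Rhox9* level per kilobase of coding transcript was 6158 ± 447. The place of *Rhox9* in the order therefore depends on which length is used.

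Differences between groups were tested with limma on log2(normalized count + 1), fitted over 16281 genes in all 16 libraries, and called at a Benjamini-Hochberg FDR below 0.001. From ESCs to EpiLCs, *Rhox6* fell by 3.17 on the log2 scale (SE 0.18, FDR = 2.0e-11, 9.01-fold) and *Rhox9* fell by 2.30 (SE 0.29, FDR = 1.2e-06, 4.94-fold). *Rhox5* had a difference of 0.31 (SE 0.24, FDR = 0.264) and was not called. Its value was 0.093 without EpiLC replicate 1, 0.12 without replicate 3 and 0.57 without replicate 4, none of them called. 2 of 3 members were called lower, beside 22.9% of all genes.

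Entry into the germ line was the step at which *Rhox6* and *Rhox9* changed most. From EpiLCs to XGFP+ PGCLCs, *Rhox9* rose by 7.60 (SE 0.29, FDR = 8.5e-14, 194-fold), the 3rd highest log2 fold change of 16281 genes. *Rhox6* rose by 7.26 (SE 0.18, FDR = 4.4e-16, 153-fold), the 5th highest, and *Rhox5* by 2.62 (SE 0.24, FDR = 1.2e-08, 6.14-fold). All 3 members were called higher, beside 27.8% of genes.

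The XGFP− population shared the rise of *Rhox6* and *Rhox9* from EpiLCs but *Rhox5* was not called there. *Rhox9* rose by 6.98 (SE 0.29, FDR = 1.6e-13) and *Rhox6* by 6.10 (SE 0.18, FDR = 2.0e-15), ranks 12 and 33 of 16281. The value for *Rhox5* was 0.33 (SE 0.24, FDR = 0.212). Leaving out 1 EpiLC library moved it to 0.547 (replicate 1, FDR = 0.035), 0.18 (replicate 2), 0.52 (replicate 3) or 0.072 (replicate 4), and leaving out XGFP− replicate 4 to 0.19, none of them called. 2 of 3 members were called higher, beside 29.9% of genes. Both contrasts use the same EpiLC libraries.

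Against ESCs, in comparisons that share the ESC libraries, all 3 members were higher in XGFP+ PGCLCs, with log2 fold changes of 2.93 (*Rhox5*), 4.09 (*Rhox6*) and 5.30 (*Rhox9*), beside 25% of genes called higher. In XGFP− PGCLCs *Rhox6* (2.93) and *Rhox9* (4.67) were called higher, beside 29.8% of genes. *Rhox5* was at 0.64 (SE 0.24, FDR = 0.0212) there and was not called. Its XGFP− libraries all lay above the ESC libraries, but the share of all genes with such a gap was not counted.

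The direct comparison of the PGCLC populations sets cells with the Xmus reporter silent against cells with it on. The populations also differed beyond the X, with 1800 of 15575 other genes called lower and 1801 higher. *Rhox5* fell by 2.29 on the log2 scale in XGFP− relative to XGFP+ PGCLCs (SE 0.24, FDR = 3.9e-07, 4.88-fold). *Rhox6* fell by 1.159 (SE 0.18, FDR = 4.0e-05, 2.23-fold). *Rhox9* had a difference of -0.62 (SE 0.29, FDR = 0.087, 1.54-fold) and was not called in this fit. Its libraries did not overlap between the populations, but the share of all genes without overlap was not counted. Without EpiLC replicate 4, the library with 10 *Rhox9* reads, the same difference had an FDR of 0.00052, and on the 8 PGCLC libraries alone 0.0003. edgeR (-0.63, FDR = 0.00094) and DESeq2 (-0.61, FDR = 6.2e-05) on recovered reads called it too. 2 of 3 members were called lower with limma, beside 12.5% of genes.

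**Figure D2:**
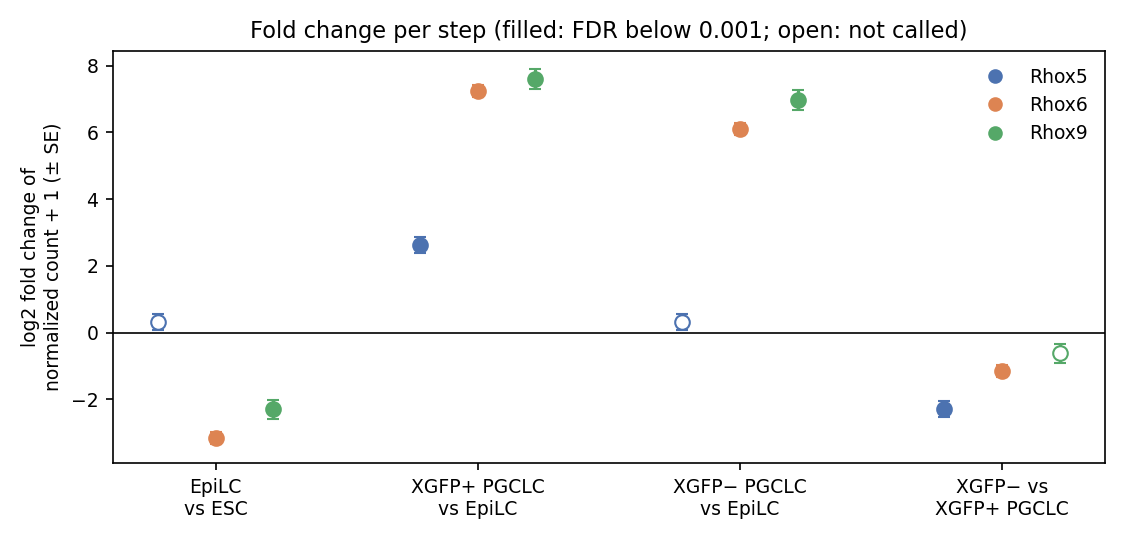
Log2 fold change (± SE, limma over 16 libraries) of *Rhox5*, *Rhox6* and *Rhox9* at each step, with filled points for FDR below 0.001 and open points for differences that were not called. Moving from *Rhox5* to *Rhox9*, the XGFP− against XGFP+ values are -2.29, -1.159 and -0.62.

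Among 706 X-linked genes tested, 240 were called lower and 32 higher in XGFP− PGCLCs, with a median log2 fold change of -0.37, and the median of 15575 other genes was 0.03. Counted from the most negative X-linked gene, *Rhox5* was 49th and *Rhox9* 237th, with *Rhox6* between them. The size of the difference was unequal among the members. The log2 ratio of *Rhox5* to *Rhox6* within a library was -0.02 ± 0.18 in XGFP+ and -1.15 ± 0.14 in XGFP− PGCLCs (SD, n = 4), a shift of -1.13. That of *Rhox5* to *Rhox9* shifted by -1.67, and that of *Rhox6* to *Rhox9* by -0.54. Each of the 3 shifts had p = 0.0286 in an exact two-sided permutation test, the smallest that 4 against 4 libraries allow, and 0.0286 after adjustment over 3 pairs, and these pairs were compared after their values had been seen. Permuted within same-numbered libraries, each had p = 0.125, the smallest that 4 pairs allow.

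Allelic ratios divide the reads of a gene by parental X, as mus reads over mus plus cas reads, and come without read numbers. Where a gene has few reads the ratio is coarse. *Rhox6* was skewed towards Xcas from the start. Its ratios in ESCs were 0.0782, 0.150, 0.110 and 0.183, and only 7 of 200 X-linked genes with a mean count above 100 (3.5%) had a lower mean ratio, the median gene being at 0.443. In EpiLCs, where the gene had 22 to 55 reads per library, the ratios were 0.224, 0.256, 0.0800 and 0.0625.

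In XGFP+ PGCLCs the ratios of *Rhox6* were 0.157, 0.146, 0.148 and 0.125, a narrow range close to the ESC mean of 0.130. The difference of 0.0136 between these groups had p = 0.571 (exact permutation test, n = 4 per group). In XGFP− PGCLCs the ratios were 0.00474, 0.00522, 0.00898 and 0.00941, all below the lowest library of every other group. The median of 185 X-linked genes was 0.0382 there, and 32.4% of those genes lay below *Rhox6*.

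*Rhox9* was near balance in ESCs and had lower ratios in both PGCLC populations. Its ESC ratios were 0.419, 0.591, 0.556 and 0.426. In EpiLCs, with 10 to 53 reads, they ran from 0.217 to 0.714, too wide to place the group. XGFP+ PGCLCs gave 0.295, 0.293, 0.286 and 0.246, all under the lowest ESC library. XGFP− PGCLCs gave 0.0579, 0.0579, 0.0583 and 0.0718, below all XGFP+ libraries and above all XGFP− values of *Rhox6*. The median of X-linked genes with a mean count above 100 in the group was also lower, at 0.443 in ESCs, 0.387 in XGFP+ and 0.0382 in XGFP− PGCLCs. Of those genes, 72% lay below *Rhox9* in ESCs, 28.1% in XGFP+ and 55.7% in XGFP− PGCLCs.

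**Figure D3:**
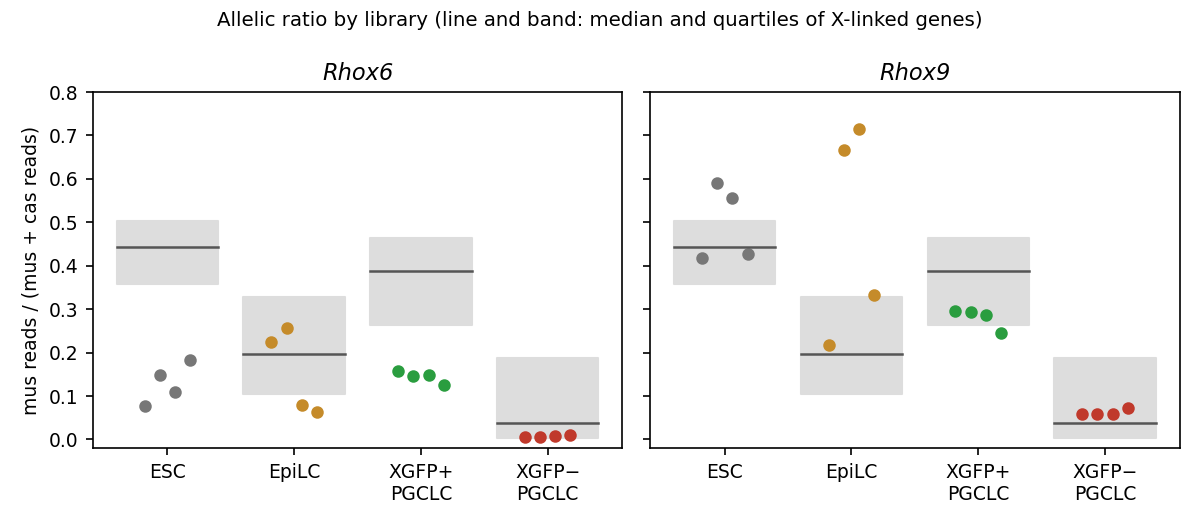
Share of allele-assigned reads that come from Xmus in each bulk library for *Rhox6* and *Rhox9*, with the median (line) and quartiles (band) of X-linked genes with a mean count above 100 in that group. *Rhox6* lies under the band in ESCs and XGFP+ PGCLCs, *Rhox9* moves from a mean of 0.498 in ESCs to 0.280 in XGFP+ PGCLCs, and both lie under 0.1 in XGFP− PGCLCs.

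The ratio differences were tested per X-linked gene with an exact two-sided permutation test of 4 against 4 libraries, Benjamini-Hochberg adjusted over the genes with a ratio, and called below 0.05. Between XGFP− and XGFP+ PGCLCs the mean ratio of *Rhox6* differed by -0.137 and that of *Rhox9* by -0.219, each with p = 0.0286 and an adjusted p of 0.0544. With this smallest possible p no gene could be called, 0% of 419, although 220 genes had an unadjusted p under 0.05, and limma on the same ratios called 230, with adjusted p of 5.6e-05 for *Rhox6* and 3.8e-05 for *Rhox9*. Between XGFP+ PGCLCs and ESCs the *Rhox9* ratio differed by -0.218 (p = 0.0286, adjusted p = 0.143, exact permutation test). Again 0% of 466 genes were called, 93 had an unadjusted p under 0.05, and limma called 47, *Rhox9* among them (adjusted p = 0.0303). Between XGFP− PGCLCs and ESCs the differences were -0.123 for *Rhox6* and -0.436 for *Rhox9* (exact permutation test, adjusted p = 0.0515 for both), with 0% of 425 genes called, 236 at an unadjusted p under 0.05, and 245 called by limma.

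Multiplying the normalized count by the ratio splits each level into a mus part and a cas part. For *Rhox6* both parts were higher in XGFP+ PGCLCs than in ESCs, by close folds. The mus part went from a mean of 37.6 in ESCs to 728 (19.3-fold) and the cas part from 261 to 4340 (16.6-fold). For *Rhox9* the folds were further apart, with the mus part going from 69.04 to 1523 (22.1-fold) and the cas part from 68.7 to 3909 (56.9-fold). These folds were not tested.

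In XGFP− PGCLCs the mus part of *Rhox6* was 8.42, 13.1, 18.8 and 26.5, against 753, 698, 815 and 644 in XGFP+ PGCLCs. On the log2 scale this mus part fell by 5.47, or 44.3-fold. The mus part of *Rhox9* was 164, 221, 204 and 293 in XGFP− against 1513, 1568, 1720 and 1288 in XGFP+ PGCLCs, and fell by 2.81, or 6.99-fold. Both passed the exact permutation test (adjusted p = 0.0392 over 296 genes), as did 215 of 296 X-linked genes (72.6%), where the median over the 296 genes was -2.87. Replicate numbers pair these libraries. With permutation within the 4 pairs, added after the data were seen, the smallest p is 0.125 and no gene could be called, whereas limma with the number as a block called 235 genes, *Rhox6* (adjusted p = 3.0e-05) and *Rhox9* (adjusted p = 5.8e-05) among them. The mus part of *Rhox9* in XGFP− PGCLCs (mean 221) was 3.19-fold the ESC mean of 69.04, while that of *Rhox6* (mean 16.7) was 2.25-fold under the ESC mean of 37.6.

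The cas parts bear on the allele that stays active. For *Rhox6* XGFP− PGCLC libraries had 1769, 2494, 2077 and 2788, and XGFP+ libraries had 4050, 4081, 4704 and 4525, without overlap. The log2 difference was -0.95 (SE 0.15, 1.93-fold) with p = 0.0286 and an adjusted p of 0.0646 in the exact permutation test over 296 genes, and adjusted p = 0.00117 with limma. The median of these genes was 0.10, and 13.9% had a lower value than *Rhox6*. For *Rhox9* the cas parts were 2665, 3594, 3299 and 3785 against 3615, 3778, 4287 and 3956, which overlap, and the log2 difference was -0.24 (SE 0.12, p = 0.0857, adjusted p = 0.151, exact permutation test), or -0.13 without XGFP− replicate 1. None of the 296 genes (0%) was called lower, while 44.3% had an unadjusted p under 0.05 in either direction and limma called 46.96%. Such a split was not possible for *Rhox5*.

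5 other Rhox genes were in the bulk table and all had a group mean above 10. *Rhox1* had a mean of 22.4 ± 10.5 in ESCs and 7.28 ± 2.37 in EpiLCs, then 32.8 ± 8.64 for XGFP+ and 2.97 ± 2.80 for XGFP− PGCLCs (SD, n = 4). The pseudogene *Rhox2-ps* had 18.2 ± 6.98, 23.5 ± 15.5, 166 ± 9.66 and 41.1 ± 16.5 in the same order. *Rhox7a* was at 0.988 ± 1.98 in ESCs and 0.198 ± 0.396 in EpiLCs, and at 38.8 ± 7.31 and 12 ± 1.18 in XGFP+ and XGFP− PGCLCs. *Rhox7b* gave 1.02 ± 1.40, 0.496 ± 0.572, 48.9 ± 11.8 and 12.7 ± 7.37. These 2 lie between *Rhox6* and *Rhox9* on the chromosome.

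*Rhox13*, which lies apart from the members towards the end of the cluster, took another course, with 38.3 ± 16.1 in ESCs and 29.1 ± 2.17 in EpiLCs, against 12.7 ± 5.76 for XGFP+ and 1.44 ± 0.527 for XGFP− PGCLCs. Between the PGCLC populations, 3 of these 5 genes were called lower in XGFP− cells (limma), *Rhox1* by a log2 fold change of -3.27 (FDR = 3.9e-06), *Rhox13* by -2.43 (FDR = 5.2e-06) and *Rhox2-ps* by -2.06 (FDR = 0.00033). *Rhox7a* (-1.60, FDR = 0.0068) and *Rhox7b* (-2.10, FDR = 0.0036) were not called. The levels of these 5 genes are far under those of the members, and several Rhox genes have near copies between which reads may be divided.

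Within 1 Mb of the Rhox span, 16 other X-linked genes had a mean count above 100 in every group. Of these, 10 were called lower in XGFP− PGCLCs (limma), with a median log2 fold change of -0.55 and a range from -2.03 (*Pgrmc1*) to 0.28. *Rhox5* at -2.29 was below this range. 4 of the neighbours had allelic ratios. *Akap17b* went from 0.396 ± 0.0431 in ESCs to 0.336 ± 0.0656 in XGFP+ and 0.00373 ± 0.00431 in XGFP− PGCLCs (SD, n = 4). *Lamp2* went from 0.490 ± 0.0100 to 0.435 ± 0.0230 and 0.0851 ± 0.0263, and *Cul4b* from 0.497 ± 0.0125 to 0.342 ± 0.0424 and 0.0690 ± 0.0437. *Nkap* went from 0.460 ± 0.0187 to 0.491 ± 0.0200 and 0.360 ± 0.0250. In ESCs all 4 had higher mean ratios than *Rhox6*.

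The genes most like each member over the 16 libraries were found by Pearson correlation of log2 values among 11701 genes with a mean count above 100. These coefficients mostly reflect the 4 group means and are descriptions. *Rhox5* was closest to *Piwil2*, a germ line PIWI protein gene (r = 0.964), then *Folr1*, *Chd5*, *Usp29* and *Reck*. *Rhox6* was closest to *Cfc1* (r = 0.992) and to *Dppa3*, the maternal factor also known as Stella (r = 0.992), followed by *Ezh1*, *Foxr1* and *Fermt3*. *Rhox9* was closest to *Zswim1* (r = 0.994), followed by *Lgals9*, *Cpsf4l*, *Exosc5* and *Rest*. *Rhox6* and *Rhox9* correlated with each other at 0.982, and *Rhox5* with them at 0.683 and 0.691.

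Since DNA methylation is the known means of Rhox silencing, 15 genes of the methylation machinery were read beside the members. From ESCs to EpiLCs 6 rose and 6 fell (median log2 fold change -0.17, all genes 0.01). *Dnmt3b*, a de novo methyltransferase, rose by 4.22 (SE 0.13, FDR = 8.8e-15), from a mean of 2561 ± 519 to 46987 ± 2924 (SD, n = 4). *Tet2*, an enzyme that oxidizes methylated cytosine, fell by 5.27, from 19692 to 534. These were the largest changes of the list in each direction. At this step *Rhox6* and *Rhox9* fell, while *Rhox5* was not called (log2 fold change 0.31). Whether these changes bear on Rhox levels was not tested.

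From EpiLCs to XGFP+ PGCLCs 5 of the 15 rose and 6 fell (median 0.06, all genes -0.004). *Dnmt3b* fell by 5.34 to 1173 ± 196 and *Tet2* rose by 2.10 to 2237 ± 589. From EpiLCs to XGFP− PGCLCs 3 rose and 8 fell (median -0.90, all genes -0.03), and *Dnmt3b* fell by 7.86 to 203 ± 30.5. In XGFP− against XGFP+ PGCLCs, 7 of the 15 were lower with limma (median -0.29, all genes 0.01), among them *Zfp57*, which guards imprints (-4.71), *Dnmt3l*, the cofactor of de novo methylation (-3.27), and *Dnmt3b* (-2.52). These 3 genes were lower in the population with the lower Rhox levels, and their part in those levels was not tested. The lists of germ cell and naive genes moved as well. Of 12 germ cell genes 6 were lower and 2 higher in XGFP− PGCLCs (median -0.79), and of 8 naive genes 5 were lower (median -0.83).

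Single cells of the rOvary show how *Rhox6* and *Rhox9* are spread over the sorted populations. The study kept as germ cells only those above a *Dazl* limit, and such a limit is used here only where stated. After filters on genes, reads and mitochondrial share, 462 rOvary cells and all 24 ESCs were kept. They include 88 XGFP+ constitutive cells (93.6% of those labelled), 125 XGFPhigh cells (86.8%), 88.9% of XGFPintermediate and 88.97% of XGFPlow cells. The 10 empty wells held no read of either gene, but their median was 0.5 reads of any gene, too few to show one. A population is 1 sample without a culture label, so no test was made, and intervals cover counting error only. The median depth was 354149 reads in XGFP+ constitutive cells, 636623 to 645474 in the other rOvary populations and 1103780 in ESCs. All constitutive cells were sequenced in 1 lane that holds 16 cells of each other rOvary population, so lane and origin can mostly not be told apart.

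At least 1 *Rhox6* read was found in 95.5% of XGFP+ constitutive cells (95% exact interval 88.8 to 98.7), 80% of XGFPhigh (71.9 to 86.6), 83.6% of XGFPintermediate (76.02 to 89.5) and 80.99% of XGFPlow cells (72.9 to 87.6). In ESCs the share was 58.3% (36.6 to 77.9) at greater depth. *Rhox9* reads were found in 92.05%, 84.8%, 82.03% and 81.8% of the rOvary populations in the same order and in 41.7% of ESCs. With each cell thinned to 50000 reads the *Rhox6* shares were 85.2%, 72%, 78.1% and 78.5%, and 39.1% in ESCs. The thinned *Rhox9* shares were 86.4%, 74.4%, 77.3% and 76.9%, and 8.70% in ESCs.

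Pooled over cells, *Rhox6* had 276, 177, 220 and 214 RPM (reads per 1e6 reads of the same cells) in XGFP+ constitutive, XGFPhigh, XGFPintermediate and XGFPlow cells and 12.5 RPM in ESCs. *Rhox9* had 356, 202, 259 and 257 RPM, and 6.65 RPM in ESCs. XGFPhigh cells had 14.2 times the *Rhox6* and 30.4 times the *Rhox9* level of ESCs, and 32.2% of 12741 genes were at least 2-fold higher in this pair. All ESCs were in lane 4, which held no rOvary cell, so lane and cell type cannot be told apart here. Between rOvary populations the pooled reads of both genes differed by less than 2-fold.

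Relative to XGFPhigh cells, the pooled *Rhox6* level was 1.24-fold (counting interval 1.22 to 1.27) in XGFPintermediate, 1.21-fold (1.18 to 1.23) in XGFPlow and 1.56-fold (1.52 to 1.60) in XGFP+ constitutive cells. For *Rhox9* the folds were 1.28 (1.26 to 1.31), 1.27 (1.24 to 1.30) and 1.76 (1.72 to 1.80). Neither gene was among the genes at least 2-fold higher, which made up 20.9%, 21.7% and 6.45% of genes in these 3 pairs. These intervals leave out the spread between cells, which was far wider. In XGFPhigh cells *Rhox6* had quartiles of 14.4 and 245 RPM around a median of 97.7, with a highest cell at 1119, and in XGFPlow cells quartiles of 37.3 and 305 around a median of 154. The cells of lane 2 alone gave 147 RPM for *Rhox6* in 14 XGFPhigh cells, 316 in 16 XGFPintermediate and 342 in 15 XGFPlow cells, so that the folds over XGFPhigh were 2.15 and 2.33. For *Rhox9* the folds in lane 2 were 1.74 and 2.12. By medians over cells, *Rhox9* was 2.06-fold over XGFPhigh in XGFPintermediate, 1.91-fold in XGFPlow and 2.10-fold in XGFP+ constitutive cells, so the size of these differences depends on the summary used.

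**Figure D4:**
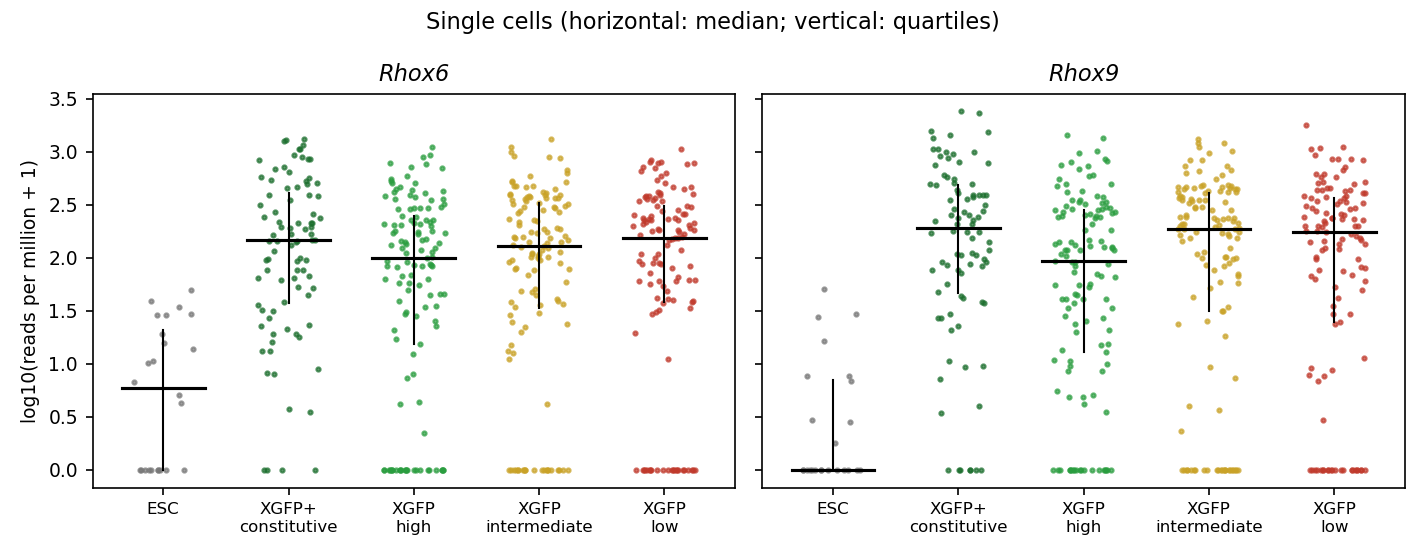
*Rhox6* and *Rhox9* in single ESCs and rOvary cells as log10(RPM + 1), with a dot per cell, horizontal lines for medians and vertical lines for quartiles. The rOvary medians lie between 97.7 and 154 RPM for *Rhox6* and between 91.3 and 192 RPM for *Rhox9*, above the ESC medians of 4.91 and 0, and cells without a read occur in every population.

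Both genes were found in the same cells. Of 462 rOvary cells, 374 had reads of both, 56 of neither, 15 of *Rhox6* alone and 17 of *Rhox9* alone. Their log levels correlated across cells with Pearson r = 0.847, from 0.762 in XGFPhigh to 0.894 in XGFPlow cells. The cells share libraries and the genes share sequence, while *Rhox6* and read depth had r = -0.06. *Rhox6* had r = 0.476 with *Dppa3*, from 0.089 in XGFP+ constitutive to 0.686 in XGFPintermediate cells. With *Dazl* it was 0.452, from 0.184 in XGFP+ constitutive to 0.711 in XGFPlow cells. By rank (Spearman) the *Dazl* value was 0.133, from -0.201 in XGFPintermediate to 0.285 in XGFPlow cells, so it depends on the measure. Pearson r of *Rhox6* with *Dazl* in XGFPintermediate cells was 0.470. With *Rhox13* Pearson r was 0.064, from -0.090 in XGFPhigh to 0.274 in XGFPlow cells.

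Rhox reads were found most often in cells with the germ cell factor *Dazl*. In 401 rOvary cells with a natural-log normalized *Dazl* above 1, 90.5% had a *Rhox6* read and 91.02% a *Rhox9* read, against 42.6% for each gene in 61 cells at or below 1. Among cells with low *Dazl*, a *Rhox6* read was found in 91.7% of 12 XGFP+ constitutive (61.5 to 99.8), 42.9% of 7 XGFPhigh (9.90 to 81.6), 16.7% of 12 XGFPintermediate (2.09 to 48.4) and 33.3% of 30 XGFPlow cells (17.3 to 52.8). The constitutive cells were all in lane 2, and these shares were not tested. The median sum of 11 gonadal somatic genes was at most 11.7 RPM in the 4 rOvary populations, and in each of the 4 most cells lacked a read of any given one of these genes.

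Among cells with *Dazl*, median Rhox levels were lower where the synaptonemal complex gene *Sycp3* was above 1. The median was 56.8 RPM for *Rhox6* and 80.1 RPM for *Rhox9* in 66 such cells, against 173 and 221 RPM in 335 others. Within XGFPintermediate cells alone the medians were 34.9 against 228 RPM for *Rhox6* (41 and 75 cells), and within XGFPlow cells 86.9 against 227.4 RPM (17 and 74 cells). For the helicase gene *Ddx4*, the *Rhox6* median was 109.7 RPM in cells above 1 and 172 RPM in 268 others. By population it was 108.8 against 369 RPM in XGFPintermediate, 112.8 against 249 RPM in XGFPlow and 56.8 against 114.3 RPM in XGFPhigh cells (12 above 1). In XGFP+ constitutive cells the order was the other way, with 349 RPM in 5 cells above 1 and 143.4 RPM in 71 others. Across all cells of a population, those with low *Dazl* included, *Rhox6* and *Ddx4* had r from -0.146 in XGFPhigh to 0.575 in XGFPlow cells, and *Rhox6* and *Sycp3* from -0.176 to 0.405 in the same populations. In XGFPlow cells these coefficients and the medians point in opposite directions. For *Ddx4* the same holds in XGFPintermediate (r = 0.272) and in XGFP+ constitutive cells (r = -0.071). Coefficients and medians differ in the cells kept. By rank (Spearman), *Rhox6* and *Ddx4* had 0.233 in XGFPlow, -0.160 in XGFPintermediate and -0.040 in XGFP+ constitutive cells.

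19 Rhox genes were in the single-cell table, 17 beside *Rhox6* and *Rhox9*, and 12 of these were under 10 RPM in every rOvary population. *Rhox13*, which was low in PGCLCs, reached 73.8 RPM in XGFP+ constitutive, 73.8 in XGFPhigh, 102 in XGFPintermediate and 48.1 in XGFPlow cells. *Rhox2a* had 36.5, 34.8, 18.02 and 12.7 RPM, and its near-identical copies make its counts uncertain. Both stayed under the members in each population.

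Allelic ratios of single cells show which X the Rhox reads came from, and a ratio at or below 0.1 marks a cell whose reads are nearly all from Xcas. For *Rhox6* this held in 33.3% of 66 XGFP+ constitutive cells (95% exact interval 22.2 to 46.01), 40% of 90 XGFPhigh (29.8 to 50.9), 71.3% of XGFPintermediate (61.4 to 79.9) and 87.8% of 74 XGFPlow cells (78.2 to 94.3). For *Rhox9* it held in 20% of 50 (10.0 to 33.7), 16.4% of 73 (8.79 to 26.95), 65.6% of 90 (54.8 to 75.3) and 67.7% of 65 cells (54.9 to 78.8). The median over X-linked genes was 15.1%, 16.2%, 38.2% and 52.03% in the same order. The share of cells with nearly all reads from Xcas was lower in XGFPhigh than in XGFPlow cells, by 47.8 percentage points for *Rhox6* (33.3 to 59.9) and 51.3 for *Rhox9* (34.7 to 64.7).

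XGFP+ constitutive and XGFPhigh cells differed by -6.67 points for *Rhox6* (-22.2 to 9.60) and by 3.56 points for *Rhox9* (-10.9 to 19.3). These intervals cover counting error only, and each population is a single sample, so these differences were not tested. All constitutive cells were in a lane with few XGFPhigh cells, so lane and origin can mostly not be told apart. The skew of *Rhox6* towards Xcas seen in bulk ESCs was also present in cells with Xmus active. Its median ratio was 0.219 in XGFP+ constitutive and 0.209 in XGFPhigh cells, against 0.447 and 0.476 for *Rhox9*. In XGFPintermediate and XGFPlow cells the median ratio of *Rhox6* was 0, with 51.5% and 68.9% of cells at 0, and that of *Rhox9* was 0.0426 and 0.0405. A ratio at or above 0.9, nearly all from Xmus, was found in 4 XGFPhigh cells for *Rhox6* and in 8 for *Rhox9*.

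**Figure D5:**
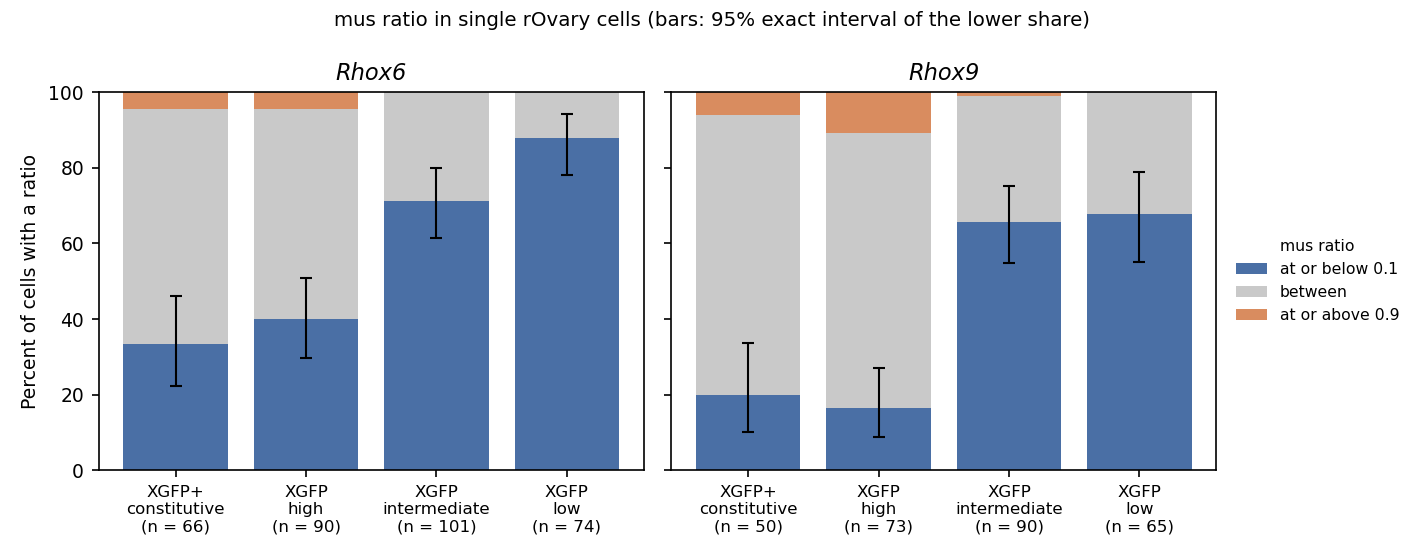
Percent of rOvary cells whose *Rhox6* or *Rhox9* reads are nearly all from Xcas (mus ratio at or below 0.1), from both alleles (between) or nearly all from Xmus (at or above 0.9), with the number of cells under each bar and the 95% exact interval of the lower share. The lower share is 33.3% and 40% for *Rhox6* in XGFP+ constitutive and XGFPhigh cells and 87.8% in XGFPlow cells.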

How the data were processed

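The authors aligned stranded paired-end bulk reads with STAR to mm10 with strain SNPs masked, filtered them with WASP, counted with HTSeq 0.6.1 and divided by DESeq2 size factors. The deposited bulk table holds this normalized signal for 16335 genes, and GENCODE vM21 named 16103 of them. The authors' allelic files give, for each gene, the fraction of mus reads among mus plus cas reads, in bulk and in cells, without read numbers, so their counting error is unknown. For single cells the authors deposited unscaled read counts, without molecular identifiers, from which RPM (reads per 1e6 reads) were computed here. 4 columns of another study were not used.

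The members and lists were chosen with earlier results of these data known. Genes named besides the members are all Rhox genes with a group mean above 10, neighbours within 1 Mb, the 5 genes most like each member, and up to 3 called genes per direction of each list (methylation machinery, germ cell, naive, formative, gonadal somatic, trophoblast, primitive endoderm).

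limma 3.58.1 (limma-trend, log2(normalized count + 1), mean above 10, all 16 libraries, FDR below 0.001) was the main test. Whole reads were recovered from the value steps (100% within 0.01 read) for edgeR 4.0.16 and DESeq2 1.42.0. Tested on simulated XGFP− against XGFP+ data of 16281 genes, limma recovered 76% of log2 changes of 1 and 93% of log2 changes of 2. Libraries of a group differed beyond sampling noise (chi-square per gene 8.49 to 42.8). Replicate numbers were checked for pairing. XGFP+ and XGFP− libraries of the same number deviated together (r = 0.253, 0.135, 0.200 and 0.307), so the numbers pair that contrast, while other pairs of groups gave -0.0105 to 0.160. Cells had at least 4000 genes, 10000 reads and at most 5% mitochondrial reads. Wells were sorted singly and no doublet caller was run. Sequences are from GENCODE vM21 transcripts and RefSeq promoters.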

Additional observations from a re-analysis of the deposited data

Results flagged for a closer look

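1 of 20 groups of 4 libraries held a value set apart from the rest by Dixon's criterion, about as many as chance gives at 1 in 20. The mus ratio of *Rhox9* in XGFP− PGCLC replicate 4 was 0.0718, while the other three libraries lay between 0.0579 and 0.0583. The same library also had the highest normalized count of all 3 members among XGFP− PGCLCs.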

How the results depend on the processing

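Under the alternatives, 784 values kept their side of the threshold or stayed within the spread or interval of the main value, 15 newly passed the threshold, 5 no longer passed it and 21 moved further. No called value changed sign, while 16 of the 784, over 8 small differences that were not called, did. With *Rhox9* called, the number of members lower in XGFP− PGCLCs goes from 2 to 3. The XGFP− against XGFP+ difference of *Rhox9* passed FDR 0.001 on the 2 groups alone (-0.62), with edgeR (-0.63) and with DESeq2 (-0.61), and it ran from -0.69 to -0.52 when single libraries were left out, passing only without EpiLC replicate 4. limma in place of the permutation test called the ratio differences of *Rhox6* (-0.149 for XGFP− PGCLCs against EpiLCs, -0.137 against XGFP+ PGCLCs, -0.123 against ESCs), of *Rhox9* (-0.421, -0.219 and -0.436 in the same order, and -0.218 for XGFP+ PGCLCs against ESCs) and the cas part of *Rhox6* (-0.95). With the replicate number as a block, no call on a bulk level changed (XGFP− against XGFP+ values -2.29, -1.159 and -0.62, FDR 1.7e-06, 0.00011 and 0.086). Permutation within pairs, where p cannot go below 0.125, ended the calls on the mus parts (-5.47 and -2.81) and on the 3 shifts between members. limma with the block called the mus parts, both ratio differences and the cas part of *Rhox6* (-0.95). Single-cell folds over XGFPhigh by medians over cells were 1.32 (XGFPintermediate), 1.58 (XGFPlow) and 1.48 (constitutive) for *Rhox6* and 2.06, 1.91 and 2.10 for *Rhox9*. In cells with *Dazl* they were 1.31, 1.33 and 1.41 for *Rhox6* and 1.35, 1.45 and 1.55 for *Rhox9*, in lane 2 alone 2.15, 2.33 and 1.88 for *Rhox6* and 1.74, 2.12 and 1.67 for *Rhox9*, and without a filter on cells 1.28 for *Rhox6* in XGFPintermediate cells. In cells with *Dazl*, XGFPlow exceeded XGFPhigh cells in the share with a read by 14.5 points for *Rhox6* and 10.3 for *Rhox9*. The cause of these shifts was not tested. No member had a ratio of 0 in bulk, so leaving out such ratios could not be run. Low EpiLC counts (10 to 55 reads of *Rhox6* or *Rhox9*) limit the ratios there, and the smallest permutation p of 0.0286 limits calls on ratios.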
